A study of Mus musculus with 13 samples.

Results

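The genes described here encode receptors for the neurotransmitters glutamate, GABA, acetylcholine, serotonin and dopamine. Members were chosen by gene symbol: AMPA (Gria), kainate (Grik), NMDA (Grin), delta (Grid) and metabotropic (Grm) glutamate receptors, GABA-A alpha, beta and gamma subunits (Gabra, Gabrb, Gabrg), GABA-B receptors (Gabbr), nicotinic (Chrn) and muscarinic (Chrm) acetylcholine receptors, serotonin receptors (Htr) and dopamine receptors (Drd). The deposited table holds 72 such genes among 20689 gene bodies. Of the 72, 60 were on an autosome and shared no base with another gene body, and all 60 passed the minimum level. The whole table had 15774 such gene bodies. The other 12 members were 2 genes on chromosome X and 10 whose reads could not be fully assigned, because another gene lies over the same bases.

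H3K14ac, the acetylated lysine 14 of histone H3, and KAT7 (HBO1), the acetyltransferase that places this mark, were measured by ChIP-seq. The cells were mouse neural stem and progenitor cells, taken at E14.5 from both cortex and ganglionic eminences and grown as floating neurospheres to passage 5, day 3. The deleted cells were Kat7 lox/lox and the intact cells Kat7 +/+, and both carried a NesCre transgene, in which nestin regulatory sequence drives Cre. The labels list 1 deleted and 3 intact libraries for KAT7, 3 deleted and 4 intact libraries for H3K14ac, and 1 IgG library for each experiment. The values used here are the authors' merged values, 1 per antibody, and which genotypes they hold is not given in the sources used here. Deleted and intact cells, and antibody and IgG, were therefore not compared. Replicates were merged in each column, so their spread cannot be seen. Levels are RPKM, reads scaled to the region's length in kilobases and to the column's total reads, with totals of 134111848 reads for KAT7 and 141734087 for H3K14ac. The interval in parentheses is a 95% counting interval, which covers counting error alone, and no p-value is given. A ratio of KAT7 to H3K14ac compares scaled reads of 2 antibodies and has no absolute zero point, so it is read against other genes.

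Ionotropic receptors are ion channels assembled from several subunits, and metabotropic receptors signal through G proteins. Both are best known from the synapses of mature neurons. Some, among them AMPA, kainate and GABA-A receptors, are also present on neural progenitors. In promoters, acetylated histone H3 commonly accompanies transcription, and CpG islands, stretches rich in CG dinucleotides, often hold the transcription start site (TSS).

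Promoter windows are shown for members at the ends of the TSS island values and for Gria2, which had among the highest gene body levels. Chrna4 had the most KAT7 at its TSS island among islands with at least 50 reads, Chrm4 the highest ratio of KAT7 to H3K14ac, and Gabrg3 both the least KAT7 and the lowest ratio. Chrnb2 had a higher ratio still but only 30 reads, and it and Gria2 were added after their values were seen. The windows are RefSeq sequences of build GRCm38.p6, from 250 bases before to 50 after the RefSeq start, 5′ to 3′ in the direction of transcription. Capitals mark matches on either strand to the motifs named after them.
Chrna4 (chr2:181039128-181039427, minus strand): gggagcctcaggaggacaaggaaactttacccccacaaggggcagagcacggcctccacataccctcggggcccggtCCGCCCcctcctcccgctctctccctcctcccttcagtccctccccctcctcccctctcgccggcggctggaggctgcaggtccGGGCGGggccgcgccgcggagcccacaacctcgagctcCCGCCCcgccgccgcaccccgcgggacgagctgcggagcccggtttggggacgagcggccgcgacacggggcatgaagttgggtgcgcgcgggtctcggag
Chrm4 (chr2:91921939-91922238, plus strand): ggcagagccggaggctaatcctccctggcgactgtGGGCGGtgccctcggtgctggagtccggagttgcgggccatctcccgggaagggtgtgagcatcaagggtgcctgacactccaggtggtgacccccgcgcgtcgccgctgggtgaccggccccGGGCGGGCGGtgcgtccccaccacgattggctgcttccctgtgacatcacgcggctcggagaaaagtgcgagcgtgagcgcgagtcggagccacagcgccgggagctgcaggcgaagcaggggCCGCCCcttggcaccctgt
Chrnb2 (chr3:89764583-89764882, minus strand): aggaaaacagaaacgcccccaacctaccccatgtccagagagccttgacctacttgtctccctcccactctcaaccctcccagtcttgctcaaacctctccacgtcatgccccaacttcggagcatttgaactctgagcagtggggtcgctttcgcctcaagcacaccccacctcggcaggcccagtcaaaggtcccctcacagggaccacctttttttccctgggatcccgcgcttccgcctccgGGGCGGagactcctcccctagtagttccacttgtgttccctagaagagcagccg
Gabrg3 (chr7:57387166-57387465, minus strand): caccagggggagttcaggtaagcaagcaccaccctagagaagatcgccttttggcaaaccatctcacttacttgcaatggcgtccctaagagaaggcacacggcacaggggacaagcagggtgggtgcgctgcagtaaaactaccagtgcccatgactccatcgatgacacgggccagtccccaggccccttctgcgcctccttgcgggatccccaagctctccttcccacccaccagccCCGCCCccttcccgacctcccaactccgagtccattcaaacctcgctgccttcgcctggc
Gria2 (chr3:80802786-80803085, minus strand): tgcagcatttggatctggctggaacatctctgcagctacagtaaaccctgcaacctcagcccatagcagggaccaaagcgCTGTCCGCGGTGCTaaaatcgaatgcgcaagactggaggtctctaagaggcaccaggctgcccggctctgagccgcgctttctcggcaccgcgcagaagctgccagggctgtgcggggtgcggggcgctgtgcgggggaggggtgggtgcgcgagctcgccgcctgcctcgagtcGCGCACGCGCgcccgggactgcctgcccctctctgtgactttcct
The Gabrg3 window is taken from a RefSeq start 344 bases upstream of the start in the deposited table, and that of Gria2 from a start 44 bases upstream. The motifs searched were the GC box GGGCGG, bound by Sp and KLF factors, the TATA box TATAAA, the E-box CACGTG, an NRF1 site and the core of the RE1 element, which binds REST, a repressor of neuronal genes. Overlapping matches, such as those of the GC box in Chrm4, were counted as 1 promoter with the motif. RefSeq windows were found for 53 of the 72 members. A GC box was present in 26 of the 53 (49.1%), against 54.4% of 15141 gene promoters in all. The RE1 core was found at Gria2 alone among the members (1 of 53) and in 9 of all 15141 promoters (0.0594%). The NRF1 site was found at Gabrb1 and Gria2 (3.77%, against 7.89% of all), the E-box at Chrna7 and Grin1 (3.77%, against 9.02%), and the TATA box at 4 members (7.55%, against 9.89%). A match is a string of letters and not a shown binding site.

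A smaller share of receptor genes than of all genes had a CpG island at the TSS or was in the highest expression class. A CpG island held the TSS of 25 of the 72 members (34.7%), against 49.1% of all genes. Their promoter windows had a median of 12 CG dinucleotides in 300 bases, against 17 in all promoters, with 23 where the member had a TSS island and 7 where it had none. None of the 4 AMPA and 7 metabotropic glutamate genes had such an island, while 2 of 2 delta, 3 of 4 dopamine and 3 of 5 kainate genes did. In the file's expression classes, 0 of 72 members were in the Top 5% and 10 were in the Bottom 5% (13.9%, against 5% of all genes). These were Drd3, Grm7, Chrna2, Chrna3, Chrnd, Htr1a, Htr1f, Htr3b, Htr4 and Htr5a. Members were also long, with 23 of 72 over 200000 bases (31.9%), against 4.29% of all genes.

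Over gene bodies, KAT7 was lower at receptor genes than at other genes, and H3K14ac differed less. The median KAT7 level of the 60 members was 0.378, against 0.399 at 15714 other genes. The median H3K14ac level was 0.387, against 0.381. The median ratio of KAT7 to H3K14ac was 0.985 at members and 1.05 at other genes. KAT7 was below the median of all gene bodies at 50 of 60 members and the ratio at 52 of 60, each against 50% of all gene bodies, while H3K14ac was below its median at 22 of 60. The differences were small. A gene was counted as past the fold when it differed from the median of all gene bodies by at least 0.32 on the log2 scale. In KAT7, 0 of 60 members were that far below the median (3.02% of all gene bodies were), and 0 of 60 that far above (4.91%). For H3K14ac the same fold was passed downward by Grik5 alone (3.79% of all) and upward by 0 of 60 (5.07%), and for the ratio upward by Htr1a alone (4.33%) and downward by 0 of 60 (3.43%). At a fold of 1.1, 21 of 60 members were lower in KAT7 (16.5% of all) and 0 were higher (15.2%). At that fold H3K14ac was lower at 6 of 60 (18.7% of all) and higher at Drd3 alone (15.3%), and the ratio was lower at 16 of 60 (17.5%) and higher at Htr1a alone (20.7%). The line at 1 is set by the scaling of the columns, so these counts are read against all genes. The counting interval of the ratio lay above 1 at 5 of 60 members (34.2% of all) and below 1 at 15 of 60 (9.06%). Among genes of at least 50000 bases it lay above 1 at 3 of 34 members, Grik2, Grik5 and Grm5 (38.2% of all), and below 1 at 13 of 34 (18.8%). Across the 60 members the rank correlation of KAT7 with H3K14ac was 0.59 (Spearman), a description over genes that share both libraries. It was 0.38 across all gene bodies.

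**Figure D1:**
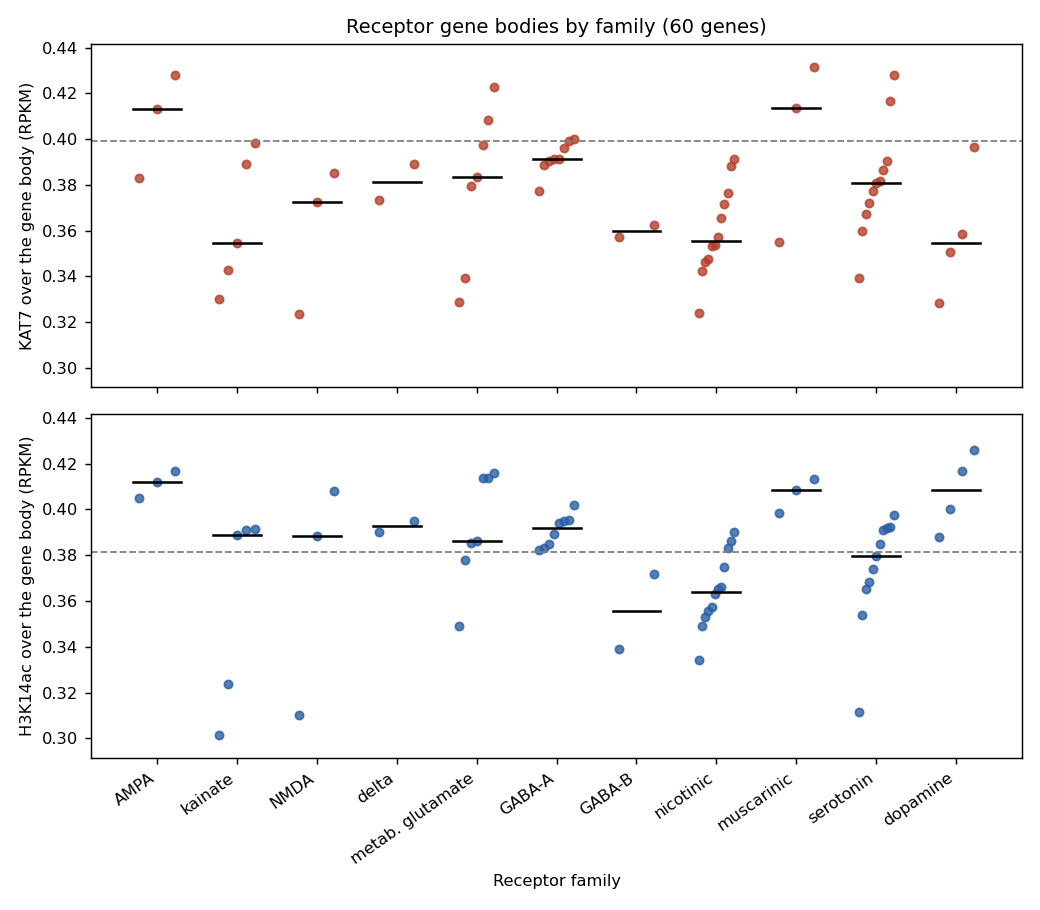
KAT7 (upper panel) and H3K14ac (lower panel) in RPKM over the gene bodies of 60 receptor genes, by family. Points are genes, black bars family medians and dashed lines the medians of all gene bodies, and 50 of the 60 KAT7 points lie below the line. The vertical axis does not start at 0.

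Among glutamate receptors, the AMPA subunits carried the highest levels. Gria2, the subunit whose edited form keeps calcium out of the channel (chromosome 3, 80684936 to 80802791), had a KAT7 level of 0.428 (0.418 to 0.438) and an H3K14ac level of 0.417 (0.407 to 0.427). Gria4 had 0.413 (0.408 to 0.419) and 0.412 (0.407 to 0.418), and Gria1 had less KAT7, with 0.383 (0.377 to 0.389), but a like H3K14ac level of 0.405 (0.399 to 0.411). The intervals of KAT7 at Gria1, Gria2 and Gria4 did not all overlap, with Gria1 apart from the other two.

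The kainate family spread widely. Grik2, a subunit that forms channels alone, had a KAT7 level of 0.398 (0.394 to 0.402) and an H3K14ac level of 0.391 (0.387 to 0.395). Grik3 (chromosome 4, 125490831 to 125714173) was low in both, with 0.330 (0.324 to 0.337) and 0.324 (0.318 to 0.330). Grik4 and Grik5 encode the subunits that need a partner to form a channel, and they differed in opposite ways. Grik4 (chromosome 9, 42520412 to 42944371) had a KAT7 level of 0.355 (0.350 to 0.359) and an H3K14ac level of 0.389 (0.384 to 0.394), a ratio of 0.912 (0.895 to 0.929). Grik5 (chromosome 7, 25009849 to 25072369) had 0.343 (0.331 to 0.356) for KAT7 and the lowest H3K14ac of all 60 members, 0.302 (0.290 to 0.313), a ratio of 1.14 (1.08 to 1.20).

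Among the NMDA subunits that bind glutamate, Grin2a had a KAT7 level of 0.385 (0.380 to 0.390) and an H3K14ac level of 0.408 (0.403 to 0.413), and Grin2b had 0.373 (0.368 to 0.377) and 0.389 (0.384 to 0.393). Grin2c, best known from the cerebellum (chromosome 11, 115249169 to 115267243), had the lowest KAT7 of the 60 usable members, 0.323 (0.301 to 0.347), and a low H3K14ac level of 0.310 (0.289 to 0.333). Grin1, the subunit that every NMDA receptor needs, shares bases with another gene, so its reads cannot be fully assigned and its value of 0.265 (0.249 to 0.282) for KAT7 was not compared. The delta receptor gene Grid1, whose protein binds secreted cerebellins at synapses, had a KAT7 level of 0.373 (0.370 to 0.377), below the median of all gene bodies, and an H3K14ac level of 0.395 (0.391 to 0.399), above it.

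Of the metabotropic glutamate receptors, Grm5, which couples to Gq and is present on radial glia, had the most KAT7, 0.423 (0.418 to 0.428), with 0.416 (0.411 to 0.420) for H3K14ac. Grm3 had 0.408 (0.401 to 0.415) for KAT7. Grm4, an inhibitory presynaptic receptor gene, and Grm6, the receptor gene of retinal ON bipolar cells, were lowest, with 0.339 (0.329 to 0.351) and 0.329 (0.305 to 0.355). Grm4 combined low KAT7 with an H3K14ac level of 0.378 (0.367 to 0.389), a ratio of 0.898 (0.859 to 0.938).

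The GABA-A subunit genes kept within a narrow range. KAT7 was lowest at Gabrg3, with 0.377 (0.373 to 0.381), and was 0.396 (0.389 to 0.404) at Gabrb2 and 0.399 (0.388 to 0.411) at Gabrg1. H3K14ac at the 8 usable members lay between 0.382 at Gabra4 and 0.402 at Gabra2. They lie in clusters: Gabrg1, Gabra2, Gabra4 and Gabrb1 on chromosome 5, Gabra6 and Gabrb2 on chromosome 11, and Gabrg3 and Gabra5 on chromosome 7. The GABA-B genes, whose products pair to form the G protein coupled GABA receptor, were low in KAT7, with 0.363 (0.344 to 0.382) at Gabbr1 and 0.357 (0.352 to 0.363) at Gabbr2. Gabbr1 was also low in H3K14ac, with 0.339 (0.321 to 0.358), against 0.372 (0.366 to 0.377) at Gabbr2.

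All 12 usable nicotinic receptor genes had KAT7 below the median of all gene bodies of 0.399, from 0.324 (0.297 to 0.353) at Chrna2 to 0.391 (0.349 to 0.437) at Chrng, the subunit of fetal muscle. The genes of the brain subunits Chrna4 and Chrna7 had 0.342 (0.319 to 0.367) and 0.366 (0.356 to 0.375). In the cluster on chromosome 9 that encodes subunits of autonomic ganglia, Chrna5, Chrna3 and Chrnb4 had 0.372 (0.352 to 0.392), 0.354 (0.328 to 0.381) and 0.348 (0.326 to 0.371), and these intervals overlap. Of the muscarinic genes, Chrm3 (chromosome 13, 9876613 to 10360803) had a KAT7 level of 0.414 (0.409 to 0.419) and an H3K14ac level of 0.414 (0.409 to 0.418). Chrm1 had less KAT7, 0.355 (0.333 to 0.378), at an H3K14ac level of 0.398 (0.375 to 0.423). Chrm5 ranked highest of the 60 usable members in KAT7, 0.432, but its interval of 0.352 to 0.524 from 101 reads spans nearly the whole range.

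Htr1a, the serotonin autoreceptor gene (chromosome 13, 105443693 to 105448133), had the highest ratio of all usable members, 1.34 (1.1 to 1.62). Its KAT7 level was 0.416 (0.366 to 0.472) and its H3K14ac level 0.311 (0.269 to 0.358). Htr3a, which encodes the serotonin-gated ion channel and is expressed in interneurons of the caudal ganglionic eminence, was next, with 0.428 (0.396 to 0.461) and 0.374 (0.345 to 0.404), a ratio of 1.14 (1.03 to 1.28). Its neighbour Htr3b had 0.382 (0.363 to 0.401) and 0.391 (0.373 to 0.410), a ratio of 0.975 (0.909 to 1.05). Htr5a was lowest of the 11 usable serotonin genes in KAT7, 0.339 (0.313 to 0.368).

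All 4 dopamine receptor genes had KAT7 below and H3K14ac above the medians of all gene bodies, 0.399 and 0.381. The counting interval held the median at Drd3 and Drd4 for KAT7 and at Drd1 and Drd4 for H3K14ac, so Drd2 alone was clear of both. Drd1, the Gs-coupled receptor of striatal neurons, had a KAT7 level of 0.328 (0.284 to 0.377) and an H3K14ac level of 0.388 (0.341 to 0.439). Drd2, the main Gi-coupled receptor (chromosome 9, 49340662 to 49407214), had 0.351 (0.339 to 0.363) and 0.400 (0.388 to 0.413). Drd3 had 0.397 (0.383 to 0.411) and the highest H3K14ac of the 60 usable members, 0.426 (0.412 to 0.440), and Drd4 had 0.359 (0.302 to 0.422) and 0.417 (0.358 to 0.483). All 4 were below the ratio of 1.05 that is the gene body median, with ratios of 0.846 (0.698 to 1.02) at Drd1, 0.876 (0.835 to 0.919) at Drd2, 0.931 (0.887 to 0.976) at Drd3 and 0.860 (0.685 to 1.08) at Drd4. The interval of Drd4, the shortest of the 4 genes, included that median.

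With reads summed over each family, KAT7 ran from 0.411 (0.407 to 0.416) in muscarinic and 0.403 (0.400 to 0.407) in AMPA genes to 0.361 (0.355 to 0.367) in nicotinic and 0.358 (0.352 to 0.363) in GABA-B genes. Each of these pairs of neighbours overlapped. Between them lay metabotropic glutamate (0.392), GABA-A (0.388), delta (0.384), serotonin (0.382), NMDA (0.377), kainate (0.375) and dopamine (0.371) genes. H3K14ac ran from 0.413 (0.408 to 0.418) in muscarinic, 0.412 (0.403 to 0.421) in dopamine and 0.410 (0.406 to 0.414) in AMPA genes to 0.370 (0.364 to 0.376) in nicotinic and 0.369 (0.364 to 0.375) in GABA-B genes. The ratio was lowest in dopamine genes, 0.90 (0.871 to 0.930), and next in NMDA genes, 0.953 (0.941 to 0.965), and these intervals did not overlap. It was 0.996 (0.987 to 1.00) in GABA-A and 0.996 (0.980 to 1.01) in muscarinic genes. A sum is set by the longest genes, so the muscarinic value is mostly that of Chrm3. Ion channel genes (35) and G protein coupled receptor genes (25) had summed ratios of 0.983 (0.979 to 0.987) and 0.983 (0.978 to 0.989). Their order changed with gene length. Up to 20000 bases the ratios were 1.01 (0.975 to 1.04) and 0.965 (0.926 to 1.00), and from there to 50000 bases 0.969 (0.934 to 1.01) and 1.03 (0.973 to 1.09). To 200000 bases they were 1.01 (0.995 to 1.03) and 0.952 (0.939 to 0.966), and above 0.981 (0.976 to 0.985) and 0.989 (0.983 to 0.995).

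In other genes the ratio moved with gene length, from a median of 1.07 up to 20000 bases to 0.992 above 200000 bases. The trend was weak, with 1.02 at 1000 to 2000 bases and a rank correlation of -0.105 across all gene bodies (Spearman, a description). Across the 60 members the correlation was -0.053. Their median ratios in the bands given next were 0.990, 0.978, 0.976 and 0.994, from the shortest to the longest genes. Compared within bands of length, the summed KAT7 level of members was 0.903 (0.887 to 0.920) times that of other genes up to 20000 bases (20 members), 0.915 (0.895 to 0.936) times from there to 50000 bases (6 members), 0.963 (0.955 to 0.970) times to 200000 bases (13 members) and 0.984 (0.981 to 0.986) times above (21 members). H3K14ac in the same bands was 0.975 (0.957 to 0.992), 0.976 (0.955 to 0.998), 1.01 (0.998 to 1.01) and 0.993 (0.991 to 0.996) times that of other genes. Above 200000 bases the median ratio of members, 0.994, was slightly over that of other genes, 0.992, while the summed levels gave the opposite order. The ratio was below the median of other genes of like length at 41 of 60 members (50% of all). It was below their 10th percentile at 14 of 60 (10.1% of all), among them all 4 dopamine receptor genes, Grik4, Grm4, Chrm1 and Grid1. These counts use point values, and the counting intervals of Drd1, Drd3, Drd4 and Chrm1 reached above that percentile. The ratio was above the 90th percentile of other genes at Grik5 alone (9.99% of all), where the interval reached below it.

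**Figure D2:**
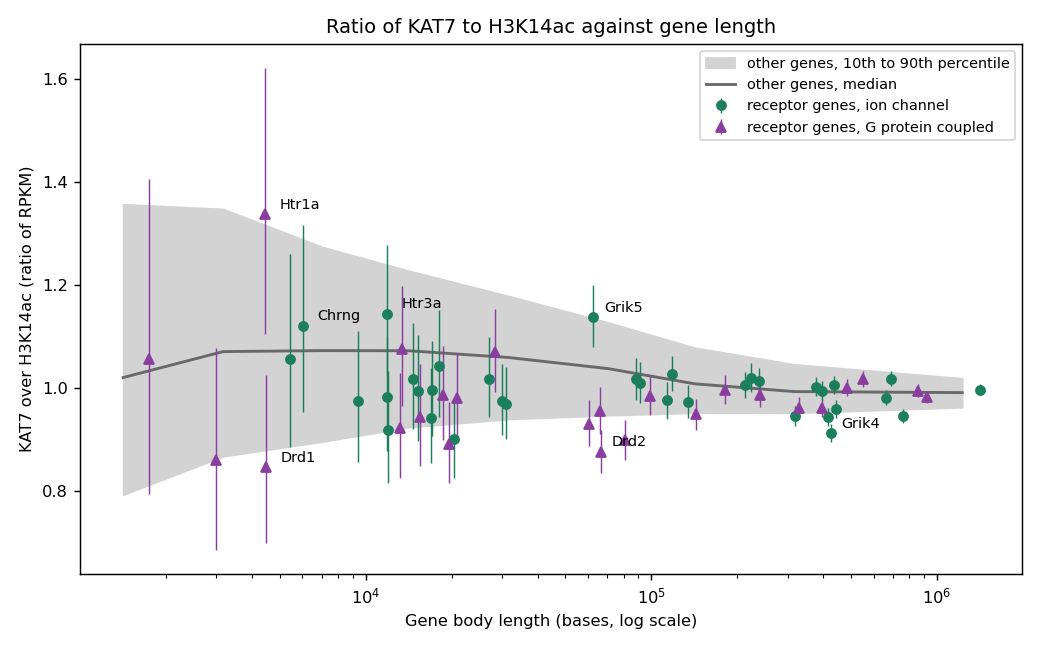
Ratio of KAT7 to H3K14ac over gene bodies against gene length (log scale) for 60 receptor genes, with 95% counting intervals. Circles are ion channel and triangles G protein coupled receptor genes, and the grey area joins the 10th and 90th percentiles of other genes in bins of length. By bin, 14 members were under the 10th percentile and Grik5 was over the 90th, while Htr1a touches the edge drawn between bins.

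Expression class also moved with the ratio: its median over all gene bodies was 0.974 in the Bottom class, 1.05 in the middle class and 1.13 in the Top class. In the Bottom class, the 10 receptor genes had 1.01 (1.00 to 1.02) times the KAT7 of other genes and 1.01 (1.01 to 1.02) times the H3K14ac. In the middle class, the 50 receptor genes had 0.975 (0.972 to 0.977) times the KAT7 and 1.01 (1.01 to 1.02) times the H3K14ac. Expression within the middle class is not given by the file, and its part in the result was not tested.

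At TSS islands, both antibodies were lower at receptor genes. The summed KAT7 level of 25 islands was 0.357 (0.336 to 0.379), against 0.494 (0.493 to 0.496) at 8871 other TSS islands, a factor of 0.723 (0.680 to 0.767). H3K14ac was 0.333 (0.313 to 0.353), against 0.471 (0.470 to 0.473), a factor of 0.706 (0.664 to 0.750). Medians were 0.378 against 0.487 for KAT7 and 0.356 against 0.458 for H3K14ac. KAT7 was at least 1.5-fold below the median of all TSS islands at 9 of 25 (9.91% of all) and 1.5-fold above at 0 of 25 (7.04%). For H3K14ac, 9 of 25 were below by that fold (17.6% of all) and 2 of 25 above, Drd4 and Htr1f (13.3%). The difference was larger in the 16 islands over 600 bases, with factors of 0.699 (0.653 to 0.748) for KAT7 and 0.631 (0.588 to 0.677) for H3K14ac. In the 9 islands up to 600 bases KAT7 had a factor of 0.862 (0.749 to 0.988), and the factor of H3K14ac, 1.11 (0.976 to 1.247), could not be told from 1 at this depth. Within the middle expression class, the factors were 0.722 (0.678 to 0.768) and 0.698 (0.655 to 0.743).

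**Figure D3:**
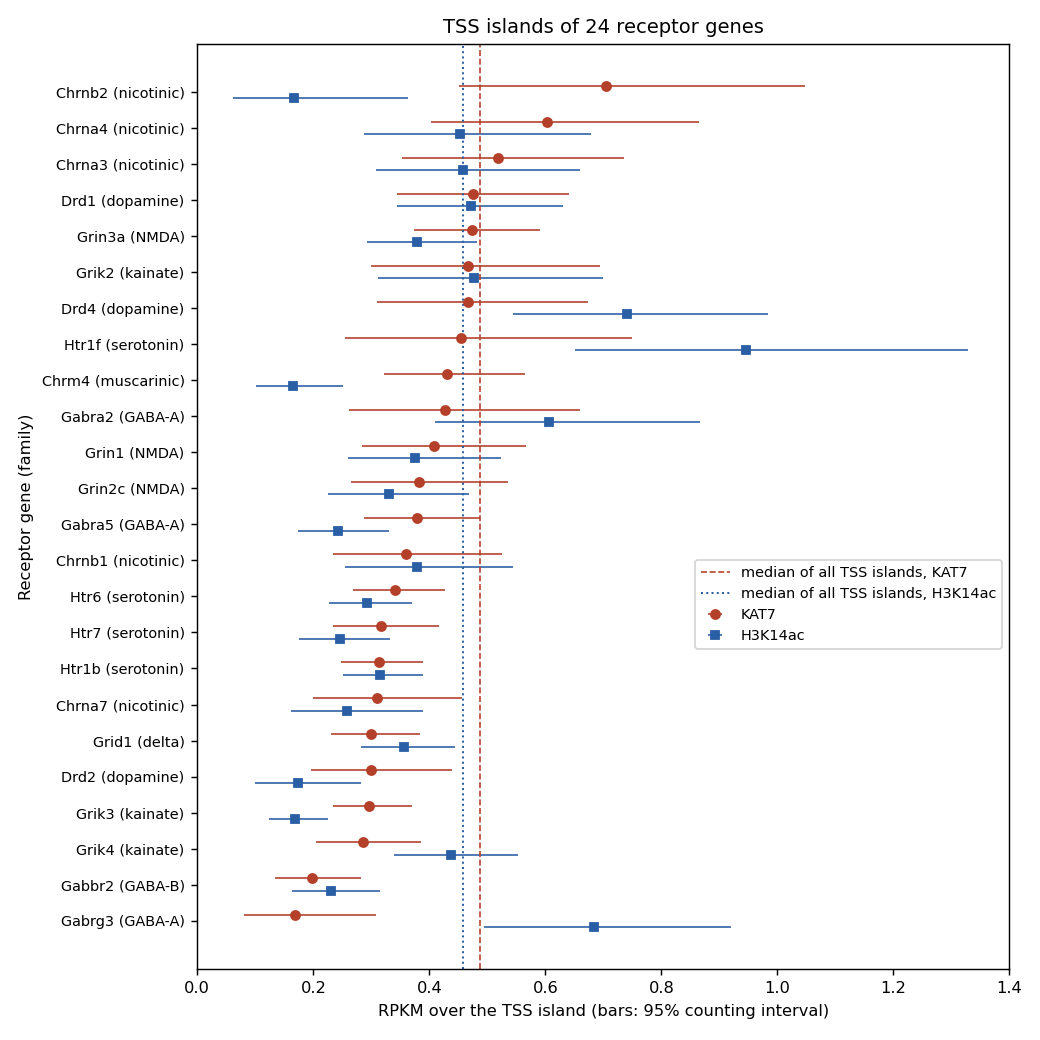
KAT7 (circles) and H3K14ac (squares) in RPKM at 24 of the 25 TSS islands of receptor genes, ordered by KAT7, with 95% counting intervals. Dashed and dotted lines are the medians of all TSS islands, 0.487 and 0.458, and most points lie to their left.

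Chrm4, a Gi-coupled muscarinic receptor gene, had KAT7 without much H3K14ac at its island (chromosome 2, 91921471 to 91922372): 0.430 (0.321 to 0.564) from 52 reads and 0.164 (0.102 to 0.251) from 21 reads, a ratio of 2.62 (1.55 to 4.57). The island of Chrnb2 (chromosome 3, 89764398 to 89764652), which with Chrna4 forms the main nicotinic receptor of the brain, had 24 KAT7 and 6 H3K14ac reads, a ratio of 4.23 (1.68 to 12.6). Its levels were 0.705 (0.451 to 1.05) and 0.167 (0.0612 to 0.363). At the Chrna4 island (181038876 to 181039235) KAT7 was 0.602 (0.403 to 0.865) and H3K14ac 0.452 (0.287 to 0.678), and the ratio of 1.33 had an interval (0.744 to 2.41) that holds the median of all TSS islands, 1.06. The kainate receptor gene Grik3 (125489950 to 125491912) was low in both, with 0.296 (0.234 to 0.370) for KAT7 and 0.169 (0.124 to 0.225) for H3K14ac, as its gene body was, and had a ratio of 1.75 (1.21 to 2.58). The gene bodies of Chrm4, Chrnb2 and Gabra5 share bases with another gene and were left out above, while islands were kept regardless. Gabra5, a GABA-A subunit gene, had 0.378 (0.288 to 0.488) and 0.242 (0.173 to 0.330), a ratio of 1.56 (1.03 to 2.39).

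Its cluster neighbour Gabrg3 had the reverse pattern at its island (chromosome 7, 57386780 to 57387224), with 10 KAT7 and 43 H3K14ac reads. KAT7 was 0.168 (0.0805 to 0.309) and H3K14ac 0.683 (0.495 to 0.920), a ratio of 0.246 (0.110 to 0.497). Htr1f, a gene of the Bottom class, had the most H3K14ac of all members' islands, 0.946 (0.652 to 1.33), but only 48 reads of both antibodies. Its KAT7 level was 0.455 (0.254 to 0.750), a ratio of 0.480 (0.242 to 0.909). Among islands with at least 50 reads, Drd4 had the most H3K14ac, 0.740 (0.544 to 0.984). Its KAT7 level was 0.466 (0.310 to 0.674), a ratio of 0.630 (0.380 to 1.03). Grik4, with 0.285 (0.205 to 0.385) and 0.437 (0.339 to 0.553), had a ratio of 0.653 (0.433 to 0.973), below the median of all TSS islands as it was below that of gene bodies. Gabbr2 was low in both at its island, with 0.198 (0.135 to 0.281) and 0.230 (0.163 to 0.316). The ratio interval lay above 1 at 4 of 25 islands (14.7% of all) and below 1 at 3 of 25 (8.17% of all), shares near those of all islands. By the fold of 1.5 the ratio was higher at 4 of 25, Chrm4, Chrnb2, Drd2 and Grik3 (15.1% of all), and lower at 5 of 25 (12.6%). The rank correlation between island and gene body over the 19 members with both was 0.0018 for KAT7 and 0.37 for H3K14ac (Spearman, a description).

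Windows beside the genes had the same order as the islands, with smaller differences. In the promoter windows of 27 plus-strand members, each 2001 bases long and ending at the TSS, KAT7 was 0.381 (0.366 to 0.395), against 0.417 (0.417 to 0.418) at other genes, and H3K14ac 0.345 (0.332 to 0.359), against 0.387 (0.386 to 0.388). Grik3 was lowest in both, with 0.231 (0.177 to 0.296) and 0.176 (0.131 to 0.233). The ratio interval lay above 1 at 4 of 27 (14.3% of all windows) and below 1 at 0 of 27 (3.06%). Those above were Grin3b with 1.79 (1.33 to 2.43), Gabbr1 with 1.48 (1.1 to 2.00), Grm7 with 1.41 (1.05 to 1.91) and Chrna5 with 1.33 (1.02 to 1.74). The gene body of Grin3b shares bases with another gene and was left out above. In windows after the transcription end, members had 0.909 (0.875 to 0.944) times the KAT7 and 0.956 (0.921 to 0.992) times the H3K14ac of other genes. The ratio interval there lay above 1 at Gabbr1 alone (12% of all windows) and below 1 at Grm5 alone (2.97%).

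Inside the 60 gene bodies there were 223 short elements of at most 160 bases, which the file names Enh and IS without explaining IS, and 20 of the 60 genes held none. Per gene, receptor genes held more IS elements near a TSS (0.933 against 0.621 in other genes) and more far from a TSS (1.80 against 0.564). Per 100 kb they held fewer, 0.449 against 1.44 near and 0.865 against 1.31 far, and receptor genes were longer, with a median of 73735.5 bases against 17484. Within bands of length the order per 100 kb was not fixed. IS elements near a TSS came at 11.6 in 20 receptor genes up to 20000 bases, against 7.70 in other genes, and at 0.148 in 21 receptor genes over 200000 bases, against 0.136. IS elements far from a TSS came at 0.714 in those 21 genes, against 0.866, and Enh elements far from a TSS at 0.362, against 0.506. The levels at these elements were not compared within bands. At IS elements near a TSS, KAT7 inside receptor genes was 0.788 (0.720 to 0.859) times that inside other genes, and H3K14ac 0.821 (0.753 to 0.893) times. At IS elements far from a TSS, KAT7 was 0.920 (0.862 to 0.981) times and H3K14ac 1.01 (0.947 to 1.07) times that of other genes. At Enh elements far from a TSS the factors were 0.914 (0.837 to 0.997) and 1.07 (0.986 to 1.16). Grm4 held the most, 24 elements, with 0.629 (0.551 to 0.714) for KAT7 and 0.673 (0.595 to 0.758) for H3K14ac, and was picked after its values were seen.

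**Figure D4:**
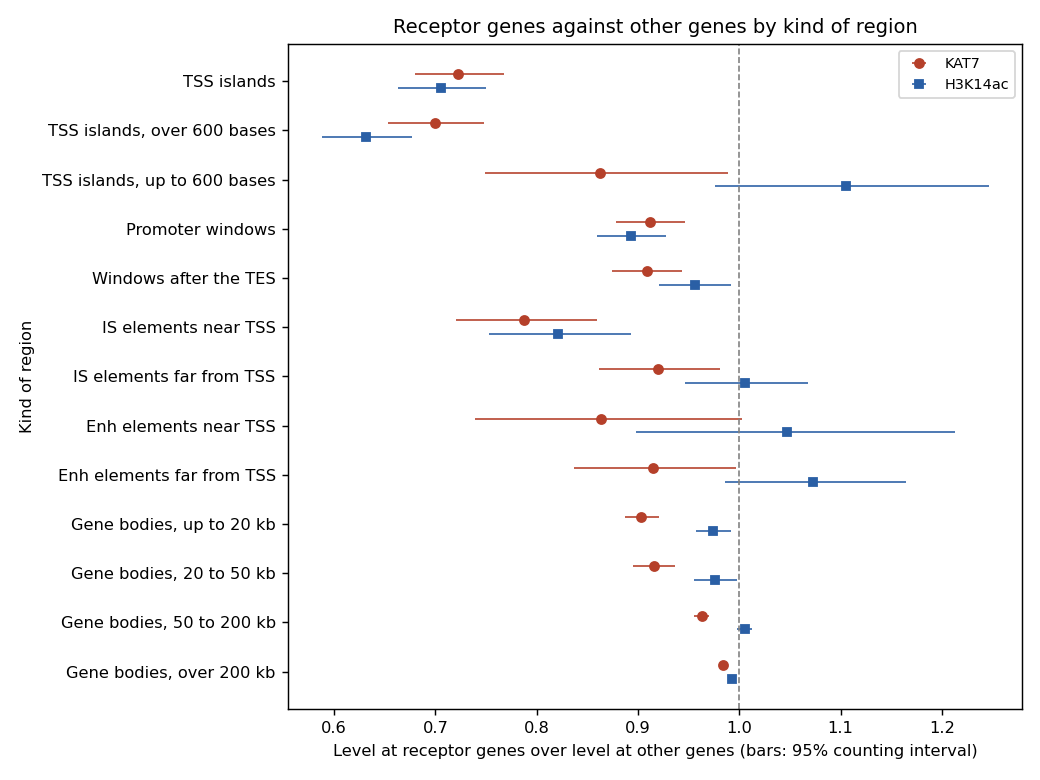
Level at receptor genes divided by that at other genes, by kind of region, for KAT7 (circles) and H3K14ac (squares) with 95% counting intervals. KAT7 points lie left of 1 in every kind of region drawn, while H3K14ac lies near or right of 1 at short islands, at Enh elements and at IS elements far from a TSS.

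The members on chromosome X had lower values, as its genes did in general. Gria3 had a KAT7 level of 0.222 (0.217 to 0.227) and an H3K14ac level of 0.217 (0.213 to 0.222), and Gabra3 had 0.216 (0.211 to 0.222) and 0.223 (0.218 to 0.229). The medians of X gene bodies were 0.209 and 0.201.

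Other receptor genes and genes that work with receptors had gene body KAT7 medians like the 0.378 of the receptor genes described here. The other receptor genes (28 usable of 31 in the table, such as glycine, adrenergic, histamine and purine receptors) had medians of 0.379 for KAT7 and 0.381 for H3K14ac. By the fold used for gene bodies, 1 was higher (4.91% of all gene bodies) and 1 lower (3.02%) in KAT7. In H3K14ac 0 were higher (5.07%) and 2 lower (3.79%), and in the ratio 2 were higher (4.33%) and 0 lower (3.43%). The same shares of all gene bodies stand beside the counts of the lists that follow. Adrb1, a beta-adrenergic receptor gene, had a KAT7 level of 0.752 (0.662 to 0.851), and Adra2c, an alpha-adrenergic one, had 0.229 (0.186 to 0.279). Receptor auxiliary and scaffold genes (26 of 33) had medians of 0.375 and 0.378, 0 passed that fold in KAT7 or the ratio, and 1, the scaffold gene Dlg4, was lower in H3K14ac. Genes of transmitter synthesis and transport (19 of 27) had 0.382 and 0.394, with 1 lower in KAT7, 2 lower in H3K14ac and 1, Slc32a1, higher in the ratio. Ddc, an enzyme gene of dopamine and serotonin synthesis, was lower in both, with 0.298 (0.288 to 0.308) and 0.292 (0.282 to 0.302). At TSS islands, the summed KAT7 level was 0.509 (0.476 to 0.544) in 13 other receptor genes, 0.429 (0.402 to 0.458) in 16 auxiliary and scaffold genes and 0.372 (0.341 to 0.405) in 10 synthesis and transport genes, beside 0.357 (0.336 to 0.379) in the receptor genes described here. H3K14ac was 0.384 (0.356 to 0.413), 0.376 (0.351 to 0.403) and 0.378 (0.347 to 0.410), beside 0.333 (0.313 to 0.353). Medians over the same islands differed from these sums. For KAT7 they were 0.459, 0.447 and 0.391, beside 0.378, and for H3K14ac 0.504, 0.364 and 0.364, beside 0.356. The median H3K14ac of the other receptor genes was above that of all TSS islands, 0.458.

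Most markers of the labelled cells stood above these values. Of 11 usable neural stem and radial glia genes, 8 passed the fold upward in KAT7 (4.91% of all gene bodies) and 7 in H3K14ac (5.07%). Their medians were 0.618 and 0.535. Prom1, a stem cell surface protein gene, had 0.369 and 0.387 and Slc1a3, a glial glutamate transporter gene, 0.427 and 0.411, within the range of the receptor genes, as was H3K14ac at Vim, 0.365. Reads summed over the 11 genes gave 0.45 for KAT7 and 0.435 for H3K14ac, and their median length of 3128 bases was below that of the receptor genes. The median of 7 neuronal marker genes was 0.386 for KAT7 and 0.379 for H3K14ac, within the range of the receptor genes, as were those of astrocyte (0.411 and 0.419), microglial (0.374 and 0.390) and endothelial (0.372 and 0.403) markers. IgG values were not used here, so how much of a receptor gene's value is above background is not known.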

How the data were processed

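Values are the authors' deposited table for mm10, with a read count and an RPKM value per region for 1 merged KAT7 and 1 merged H3K14ac column. Per the submitters' processing notes, Bowtie2, SAMtools, Picard, deepTools and featureCounts were used. What SC and gc in the column names mean is not given in the sources used here, and whether reads were corrected before they were counted is not known. Each deposited RPKM is the count divided by end minus start and by 1 total per column (100% of regions with reads, relative tolerance 1e-06).

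Symbols came from RefSeq (GRCm38.p6) by gene identifier, for 20004 of 20689 genes. Members and lists were chosen with earlier results of these data known. Gene bodies that share bases with another, chromosomes other than 1 to 19, regions above 5 RPKM and those with a mean of both antibodies under 0.1 RPKM were left out. A gene's island is the one that holds its TSS, whether or not its gene body shares bases with another. The 2001-base windows on the minus strand have a negative length and were not used. Levels carry exact Poisson and ratios exact binomial 95% intervals (scipy 1.17.1, Python 3.11.15). They were checked on simulated Poisson counts, which the intervals assume, so the check does not show how they fit real reads. Named were the 4 highest and 4 lowest members in each measure with at least 50 reads, family extremes, Bottom class and X genes, and those said to be picked later. Not all of these are given with full values. Length bands, windows and elements were added after the data were seen. Some single genes are counted in the totals but not reported here.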

Additional observations from a re-analysis of the deposited data

How the results depend on the processing

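No paired analysis was possible because the table holds merged columns and no value of a single library, and leaving out a replicate could not be run for the same reason. Of 173 values recomputed under alternatives, 130 stayed within counting error or within 1.5 times the main count and 43 did not. For a median over members, that error was the interval of the middle member alone, which is wide at islands. In the 7 islands with at least 100 reads, the median KAT7 was 0.312, beside 0.378 in all 25, and was still counted as within error. Median H3K14ac there was 0.331, beside 0.356. The 173 values are levels, ratios and counts, which have no sign. The cause of the moves was not tested, except where an alternative adds or drops genes.

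Over gene bodies, the median KAT7 of members was 0.388 in genes of at least 50000 bases, and the ratio divided by that of all genes 0.942. With chromosome X, AMPA genes had 0.357 for KAT7 and 0.361 for H3K14ac, and GABA-A genes 0.370 and 0.372. With rows that share bases kept, NMDA genes had 0.391 for H3K14ac. Medians over members in place of sums gave, for KAT7, 0.413 in AMPA, 0.355 in kainate, 0.373 in NMDA, 0.381 in delta, 0.383 in metabotropic glutamate, 0.391 in GABA-A and 0.355 in dopamine genes. For H3K14ac they gave 0.389 in kainate, 0.389 in NMDA, 0.386 in metabotropic glutamate, 0.355 in GABA-B and 0.380 in serotonin genes. By medians GABA-B genes, with 0.360, were thus above kainate, dopamine and nicotinic genes in KAT7, each with 0.355.

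Counts past the fold over gene bodies: lower in KAT7 were 4 members with rows that share bases (5.52% of all), 2 with chromosome X (6.64%) and 21 at a fold of 1.1 (16.5%). Lower in H3K14ac were 5 (6.66%), 3 (7.27%) and 6 (18.7%) in the same order and 0 at a fold of 1.5 (1.12%). Higher was 1 at 1.1 (15.3%). The ratio was lower at 16 at 1.1 (17.5%) and higher at 0 at 1.5 (0.811%). It was also higher at 0 in genes of at least 50000 bases, where the share of all was not computed. At islands, KAT7 was higher at 1 at the smaller fold (0.32 on the log2 scale, 20.7% of all islands), and lower at 14 at that fold (22.6%), 2 at a fold of 2 (2.48%) and 5 of 7 islands with at least 100 reads (5.59%). H3K14ac was higher at 4 (28%), 1 (2.68%) and 0 (11.5%) in the same order, and lower at 4 at a fold of 2 (7.31%) and 4 with at least 100 reads (13.4%). The ratio was higher at 2 at a fold of 2 (5.17%) and 1 with at least 100 reads (10.1%), and lower at 2 (2.72%) and 1 (9.96%). Island values rest on few reads, 30 at Chrnb2 and 53 at Gabrg3, which limits their ratios.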
